A study of Homo sapiens with 6 samples.

Results

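The HOX genes are the homeobox transcription factor genes of the HOXA, HOXB, HOXC and HOXD clusters, and were taken by symbol, as HOXA, HOXB, HOXC or HOXD followed by a number. The 38 described here, of 27192 genes listed, were 10 in HOXA, 10 in HOXB, 9 in HOXC and 9 in HOXD. Their RNA was counted in U87, an established human glioblastoma cell line, after knockdown of the long noncoding RNA LINC00152. Cells received either siGL2, given in the labels as a nonspecific control, or a combination of 2 siRNAs against LINC00152 (siLINC00152). Lipofectamine RNAiMAX carried the siRNAs in 2 rounds spaced 24 hours apart, and RNA was taken 24 hours after the second round in both groups. There were 3 libraries per group, lettered A, B and C. The labels do not say whether these were separate cultures, so p-values measure the spread between these libraries, which may be technical. The 2 siRNAs were used together, so the part of each could not be told apart.

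HOX proteins give cells their identity along the body axis. The genes lie in a row in each cluster, all transcribed in 1 direction, and their order on the chromosome matches the order in which they act from head to tail, so that low numbers are anterior and high numbers posterior. Genes with the same number in different clusters are paralogs. Polycomb complexes keep the clusters silent, MLL complexes keep active members on, retinoic acid switches on the anterior members during development, and HOX proteins bind DNA together with cofactors of the PBX and MEIS families. The adult brain cortex expresses few HOX genes, whereas many gliomas and glioma cell lines do express them.

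Total counts per library were between 41963120 and 46234763, and 3 counts in a library correspond to 0.0634 to 0.0730 CPM. CPM is the count over the library size scaled by the TMM method. LINC00152 was checked first. Its counts were 650, 608 and 776 under siGL2 and 114, 112 and 109 under siLINC00152, which left 17.6% of the control level (log2 fold change −2.51 ± 0.09 SE, edgeR quasi-likelihood test, adjusted p = 4.55e-15). The labels give U87 as brain. Of 9 glial markers, 7 had a mean under 1 CPM, with AQP4 and SOX10 at 0 in every library and GFAP at 2 to 12 counts, and 6 of 8 mesenchymal markers stood at 1 CPM or more. The summed glial markers were at 44.8 to 47.5 CPM under siGL2 and at 32.8 to 36.9 CPM under siLINC00152, and the summed endothelial markers went from between 7.06 and 8.27 CPM to between 2.91 and 3.09 CPM. Of the endothelial markers, KDR had 227, 222 and 268 counts against 52, 55 and 46, and PECAM1 79, 70 and 101 against 38, 43 and 46, while VWF had 17, 9 and 19 against 31, 30 and 30. Summed mesenchymal markers (17491 to 18006 CPM against 16066 to 16598 CPM), neuron markers (323 to 333 against 292 to 304) and immune markers (331 to 335 against 286 to 312) were also lower without overlap, and epithelial markers overlapped (5.35 to 5.88 against 3.94 to 5.53). Members of these sums differed in direction. Of the mesenchymal markers, VIM (374562, 394309 and 433766 counts against 277187, 291486 and 294293) and CD44 had fewer counts after knockdown. COL1A1 (19721, 19212 and 19146 against 31546, 28268 and 29479), COL1A2, COL3A1 and PDGFRB had more, and FN1 and THY1 overlapped. Of the neuron markers, TUBB3, SNAP25 and SYN1 had fewer counts, and MAP2 and GAD1 overlapped. The part of such shifts in the HOX values was not tested. Among the libraries, siGL2 replicate A stood apart from its group: chi-square per degree of freedom over genes was 10.9 to 13.7 for its pairs, 2.91 for the other control pair and 3.07 to 5.79 within siLINC00152. Without siGL2 replicate A, 1 HOX gene was called higher and 10 lower in edgeR, against 2 and 9 with all libraries. In bulk RNA, fewer cells with a transcript and less of it per cell cannot be told apart.

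After knockdown the HOX genes did not move as 1 block. HOXB4 fell 3.29-fold and HOXD13, the most posterior HOXD gene, fell 2.48-fold. In the HOXB cluster 4 of 5 tested genes fell and none rose, while the HOXD cluster held calls in both directions. Its 2 rises, HOXD1 and HOXD8, did not pass with DESeq2 (adjusted p = 0.0647 and 0.0585). Each was also lost in some edgeR fits that left out 1 library. Of the 38 genes, 21 had enough counts to be tested. Among those 21, 2 rose (HOXD1 and HOXD8), 9 fell (HOXA5, HOXB2, HOXB3, HOXB4, HOXB6, HOXC8, HOXD10, HOXD11 and HOXD13) and 10 did not pass the threshold, an adjusted p of 0.05 in edgeR's quasi-likelihood test with Benjamini-Hochberg adjustment over all 14078 tested genes. Over all tested genes 64.3% were called, 32.2% higher and 32.2% lower. Of the tested HOX genes 52.4% were called, 9.52% higher and 42.9% lower. The share called was thus below that of all genes, a gap that was not tested. Only 11 of the 21 averaged at least 1 CPM, and the part of low counts in the gap was not tested either. The median log2 fold change was −0.26 for the HOX genes and −0.00 for all tested genes, and the median size of the change was 0.38 and 0.28. The even split over all genes depended on the TMM scaling. With library size alone, 3755 of all tested genes were higher and 5389 lower in edgeR, and of the HOX genes 1 was higher and 11 lower.

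The HOXD cluster on chromosome 2 is shown here as sequence because genes called lower and a gene called higher lie in the same row. The lines give the bases before the RefSeq transcription start (GRCh38.p14, 5′ to 3′ on the plus strand) of HOXD13 at chr2:176092471-176092720 and HOXD11 at chr2:176107030-176107279, both lower after knockdown, and of HOXD8 at chr2:176129455-176129693, higher after knockdown. The HOXD8 line ends 11 bases before the RefSeq start, where a coding transcript of GENCODE begins, and the searches and base shares used all 250 bases. Capitals mark the CCAAT box (CCAAT) and the TATA box (TATAAA), searched on both strands.
HOXD13: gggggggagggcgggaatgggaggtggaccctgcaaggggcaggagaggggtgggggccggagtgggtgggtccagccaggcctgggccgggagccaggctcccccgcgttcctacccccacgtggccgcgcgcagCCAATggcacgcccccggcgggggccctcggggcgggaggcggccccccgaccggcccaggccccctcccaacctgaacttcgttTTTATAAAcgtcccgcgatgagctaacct
HOXD11: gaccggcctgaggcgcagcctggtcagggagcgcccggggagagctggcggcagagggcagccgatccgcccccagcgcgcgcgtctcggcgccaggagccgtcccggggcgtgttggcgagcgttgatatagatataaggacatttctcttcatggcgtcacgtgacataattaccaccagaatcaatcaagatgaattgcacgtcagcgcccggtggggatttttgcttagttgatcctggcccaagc
HOXD8: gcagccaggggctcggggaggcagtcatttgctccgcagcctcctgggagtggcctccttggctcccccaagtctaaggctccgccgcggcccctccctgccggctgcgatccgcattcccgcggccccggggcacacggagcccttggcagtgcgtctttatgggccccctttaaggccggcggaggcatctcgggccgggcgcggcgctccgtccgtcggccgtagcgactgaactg

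The HOXD13 stretch held a CCAAT box that began 114 bases before the start, and TATAAA on both strands, which overlap in the last capitals. Neither motif was found before HOXD11 or HOXD8. In the windows not printed, CCAAT began 59 bases before the start of HOXD10, called lower, and 69 bases before that of HOXD1, called higher. The HOXD11 stretch held the homeodomain core TAATTA 81 bases before its start and the HOX-PBX motif TGATNNAT 67 bases before it, both left in lower case. G and C made up 74.0% of the 250 bases before HOXD13, 61.6% before HOXD11 and 72.4% before HOXD8, against a median of 58.0% over 34943 distinct promoter windows in RefSeq. Windows were matched for 20 of the 38 HOX genes, among them 11 tested genes. In HOXB only HOXB1 was matched and in HOXC only HOXC4 and HOXC5. The windows thus came mostly from HOXA and HOXD, and HOXB4 and the other called HOXB genes had none. They came to 26 distinct windows, of which 7 belong to HOXA3 and 1 is shared by HOXC4 and HOXC5. CCAAT was found in 65.4% of those 26 windows and in 32.0% of all windows, TATAAA in 19.2% and 10.8%, TGATNNAT in 11.5% and 6.5%, and TAATTA in 7.7% and 4.3%. These matches describe letters in a window and do not show that a factor binds there.

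Levels differed far more between HOX genes than between groups. Per length, in CPM per kilobase of the main transcript, HOXB2 stood highest under siGL2 at 16.6, followed by HOXD8 at 10.4, and the ranges of these genes over the 3 libraries overlapped neither each other nor that of the next gene. HOXB3 (2.65), HOXA4 (2.54) and HOXD4 (2.40) followed with overlapping ranges. Next came HOXC6 (1.34), HOXD9 (1.22) and HOXB4 (1.10), where neighbours in the order also overlapped. HOXD13 stood at 0.773 and the other HOX genes described lower. After knockdown HOXB4 stood at 0.332 CPM per kilobase and HOXD13 at 0.309.

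**Figure D1:**
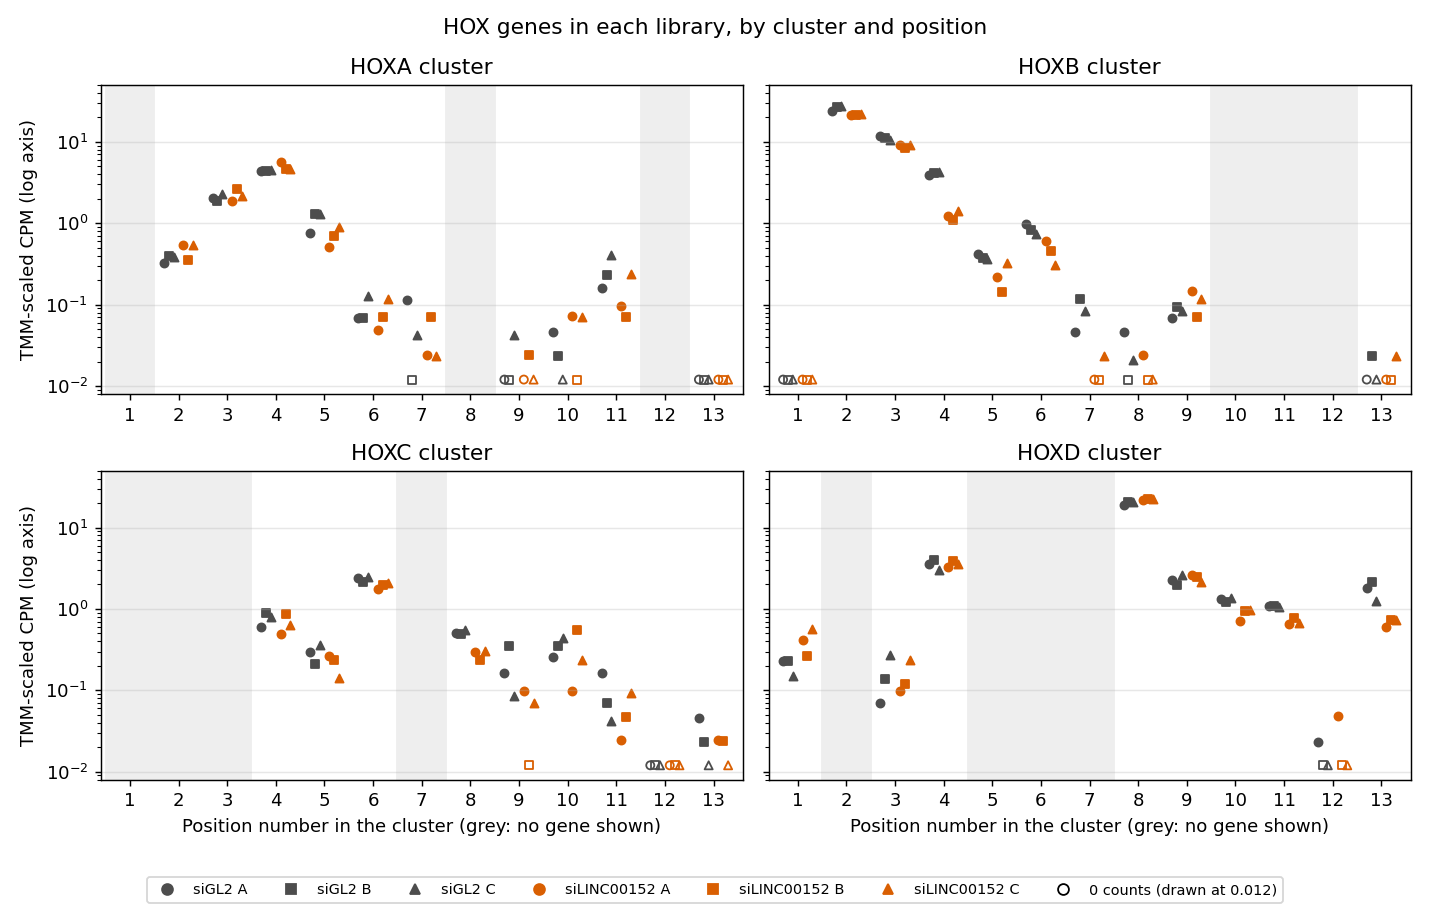
TMM-scaled CPM (log axis) of the HOX genes described in each of the 6 libraries, by position number, with 1 panel per cluster, grey for siGL2 and orange for siLINC00152; open symbols are libraries with 0 counts, and no gene is shown at shaded positions. HOXB2 and HOXD8 lie near 20 to 27 CPM, and most genes of positions 9 to 13 outside HOXD lie below 0.5 CPM.

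The plot of levels by position shows where the RNA lies in each cluster. In HOXA, HOXA3 and HOXA4 carried most of the RNA shown and positions 6 to 13 were at or below 0.402 CPM in every library. HOXB had its RNA at positions 2 to 4, with HOXB1 at 0 counts. HOXC was low throughout, with HOXC6 as its most abundant gene. HOXD held RNA of posterior genes too: HOXD8 to HOXD11 and HOXD13 were all tested. HOXA13, HOXB1 and HOXC12 had 0 counts in all 6 libraries, which allows up to 3 counts in each.

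In the HOXA cluster on chromosome 7, 1 of the 4 tested genes described passed the test. HOXA5, which patterns the lung and the cervical axis, fell. Its counts were 33, 56 and 61 under siGL2 and 21, 29 and 38 under siLINC00152, and the groups overlapped, since siGL2 replicate A lay below siLINC00152 replicate C. Its log2 fold change was −0.67 ± 0.24 (edgeR, adjusted p = 0.0194). That call was lost without siGL2 replicate B, siGL2 replicate C, siLINC00152 replicate A or siLINC00152 replicate B, where edgeR's adjusted p was 0.0801, 0.0723, 0.121 and 0.0558.

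HOXA2, HOXA3 and HOXA4 did not pass the test. HOXA2, a hindbrain and branchial arch gene, had 14, 17 and 18 counts under siGL2 and 22, 15 and 23 under siLINC00152 (log2 fold change 0.38 ± 0.28, edgeR adjusted p = 0.243). HOXA3, needed for the thymus and parathyroid, had 89, 82 and 107 counts against 78, 111 and 92 (0.11 ± 0.15, adjusted p = 0.537). HOXA4 had 192, 191 and 211 counts against 234, 193 and 198 (0.17 ± 0.10, adjusted p = 0.165). For HOXA4 the CPM of the groups did not overlap, at 4.42 to 4.46 under siGL2 and 4.59 to 5.70 under siLINC00152, and 31.0% of its exonic bases lie in another gene of the same strand.

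The HOXB cluster on chromosome 17 held the largest fall and no rise. HOXB4, known for expanding blood stem cells when overexpressed, lies at chr17:48575513-48580111 on the minus strand. It had 170, 181 and 201 counts under siGL2 and 50, 46 and 61 under siLINC00152. The groups were far apart, the highest siLINC00152 library being at 1.43 CPM and the lowest siGL2 library at 3.92 CPM. The mean went from 4.12 ± 0.177 CPM to 1.25 ± 0.171 CPM (SD, n = 3), or −1.72 ± 0.13 on the log2 scale (edgeR, adjusted p = 5.06e-10). Of the exonic bases of HOXB4, 17.1% are also exonic in other genes of the same strand, HOXB3 among them, and the HOXB4 gene holds MIR10A, so reads there may be shared.

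The more abundant neighbours of HOXB4 fell by less. HOXB2 is a hindbrain gene and had the highest CPM of the HOX genes described under siGL2. Its counts were 1040, 1148 and 1287 under siGL2 and 882, 903 and 936 under siLINC00152. No library of 1 group reached the range of the other, and the level was 25.9 ± 1.72 CPM against 21.6 ± 0.286 CPM (log2 fold change −0.26 ± 0.06, edgeR adjusted p = 7.48e-04). HOXB3, which shares hindbrain and pharyngeal roles with its paralogs, had 513, 484 and 492 counts against 372, 355 and 385. Its groups did not overlap either, at 11.1 ± 0.712 CPM and 8.85 ± 0.347 CPM (log2 fold change −0.33 ± 0.07, edgeR adjusted p = 6.35e-04). HOXB6, expressed in limb and blood progenitors in development, had 42, 36 and 35 counts against 25, 19 and 13, again without overlap (−0.89 ± 0.25, adjusted p = 0.00448). Of the exonic bases of HOXB6, 16.6% are shared with HOXB3 on the same strand and 16.3% with HOXB-AS3 on the other.

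HOXB5 lies between HOXB4 and HOXB6. It had 18, 16 and 17 counts under siGL2 and 9, 6 and 14 under siLINC00152. The groups did not overlap, but the log2 fold change of −0.72 ± 0.34 did not pass the threshold (edgeR, adjusted p = 0.0692). Of the edgeR fits that left out 1 library, only that without siLINC00152 replicate C passed (−1.06, adjusted p = 0.0275). Without siLINC00152 replicate B the log2 fold change was −0.47 (edgeR, adjusted p = 0.275). DESeq2 gave an adjusted p of 0.195. All 5 tested HOXB genes thus had negative log2 fold changes, from −0.26 to −1.72, and the cluster's median was −0.72.

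**Figure D2:**
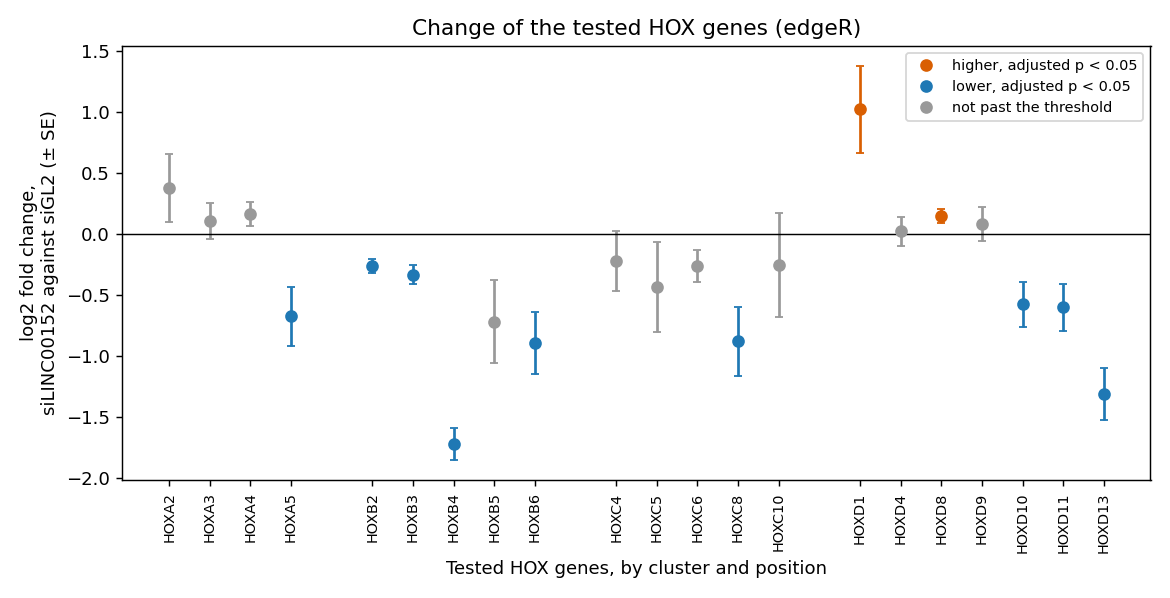
Log2 fold change of siLINC00152 against siGL2 with its SE for the 21 tested HOX genes described, by cluster and position, coloured by edgeR's call (orange higher, blue lower, grey not past the threshold). HOXD1 at 1.03 stands highest, and HOXB4 at −1.72 and HOXD13 at −1.31 lowest.

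The HOXC cluster on chromosome 12 was low in all libraries, and 1 of its 5 tested genes passed the test. HOXC8, a thoracic patterning gene, had 22, 21 and 26 counts under siGL2 and 12, 10 and 13 under siLINC00152. The groups did not overlap (0.514 ± 0.0324 CPM against 0.278 ± 0.0357 CPM, SD, n = 3), and the log2 fold change was −0.88 ± 0.28 (edgeR, adjusted p = 0.00955). DESeq2 gave an adjusted p of 0.0609 for HOXC8. HOXC6, the most abundant HOXC gene, had 103, 93 and 116 counts against 73, 83 and 88. Its groups did not overlap, yet its log2 fold change of −0.26 ± 0.13 did not pass (edgeR, adjusted p = 0.0922). The other tested HOXC genes, HOXC4 (−0.22 ± 0.25, 20 to 39 counts), HOXC5 (−0.43 ± 0.37, 6 to 17 counts) and HOXC10 (−0.25 ± 0.43, 4 to 23 counts), overlapped between groups. Their adjusted p-values in edgeR were 0.449, 0.314 and 0.629. Of the exonic bases of HOXC5, 33.9% lie in another gene of the same strand.

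In the HOXD cluster on chromosome 2, HOXD13, HOXD11 and HOXD10 fell while HOXD8 and HOXD1 rose. HOXD13, which patterns digits and the urogenital tract and whose upstream sequence is the first shown above, lies at chr2:176092891-176095938 on the plus strand. It had 78, 93 and 59 counts under siGL2 and 25, 31 and 31 under siLINC00152. Every siLINC00152 library lay below every siGL2 library, although siGL2 replicate C was well below the other controls. The level went from 1.73 ± 0.456 CPM to 0.691 ± 0.0718 CPM (SD, n = 3), or −1.31 ± 0.21 on the log2 scale (edgeR, adjusted p = 1.95e-05).

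HOXD11 and HOXD10 fell by less than HOXD13. HOXD11, a forearm patterning gene, had 47, 47 and 50 counts under siGL2 and 27, 33 and 29 under siLINC00152 (log2 fold change −0.60 ± 0.19, edgeR adjusted p = 0.0106). HOXD10, which acts in lumbar motor neurons and is a known target of miR-10b, had 57, 53 and 65 counts against 29, 40 and 41 (−0.58 ± 0.19, adjusted p = 0.0104). Neither gene overlapped between groups. The genes share exonic bases with each other on the same strand, 21.4% of those of HOXD11 and 16.8% of those of HOXD10, so their values are not fully separate. HOXD11 did not pass with DESeq2 (adjusted p = 0.0533), and HOXD10 did not pass in edgeR without siLINC00152 replicate A (−0.45, adjusted p = 0.0557).

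HOXD9, beside HOXD10, had 99, 84 and 123 counts under siGL2 and 107, 105 and 91 under siLINC00152, with overlapping groups (0.08 ± 0.14, edgeR adjusted p = 0.636). HOXD8, the next gene, had 815, 879 and 974 counts against 888, 935 and 951. Of the HOX genes described, its mean CPM came after that of HOXB2 under siGL2 and above it under siLINC00152 (22.1 against 21.6 CPM). Scaled for library size, the groups just failed to meet, at 18.8 to 20.6 CPM and 21.6 to 22.3 CPM. The mean went from 19.9 ± 0.982 CPM to 22.1 ± 0.388 CPM (SD, n = 3), 1.11-fold higher (0.15 ± 0.06, edgeR adjusted p = 0.0332). This small rise was not past the threshold with library size alone as the scaling (edgeR, 0.08, adjusted p = 0.237) or with DESeq2 (adjusted p = 0.0585). In edgeR it was also lost without siGL2 replicate A (adjusted p = 0.110), siGL2 replicate B (0.0552), siLINC00152 replicate B (0.0852) or siLINC00152 replicate C (0.0929).

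At the anterior end of the cluster, HOXD4 had 156, 171 and 142 counts under siGL2 and 135, 162 and 152 under siLINC00152 (0.03 ± 0.12, edgeR adjusted p = 0.866). Of its exonic bases, 80.5% lie in another annotated gene of the same strand, AC009336.2. HOXD1, at the anterior end of the HOXD row, had 10, 10 and 7 counts against 17, 11 and 24. The groups did not overlap by 1 count, and the log2 fold change was 1.03 ± 0.36 (edgeR, adjusted p = 0.0167). It was lost with DESeq2 (adjusted p = 0.0647), and in edgeR without siGL2 replicate C (0.83, adjusted p = 0.0724) or siLINC00152 replicate C (0.73, adjusted p = 0.130). Of the exonic bases of HOXD1, 58.1% lie on the strand opposite to other genes, HAGLR among them, and which strand the counting used is not known here. HAGLR itself stood at 10.8 ± 0.748 CPM and 11.4 ± 0.590 CPM (0.08 ± 0.07, edgeR adjusted p = 0.335).

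**Figure D3:**
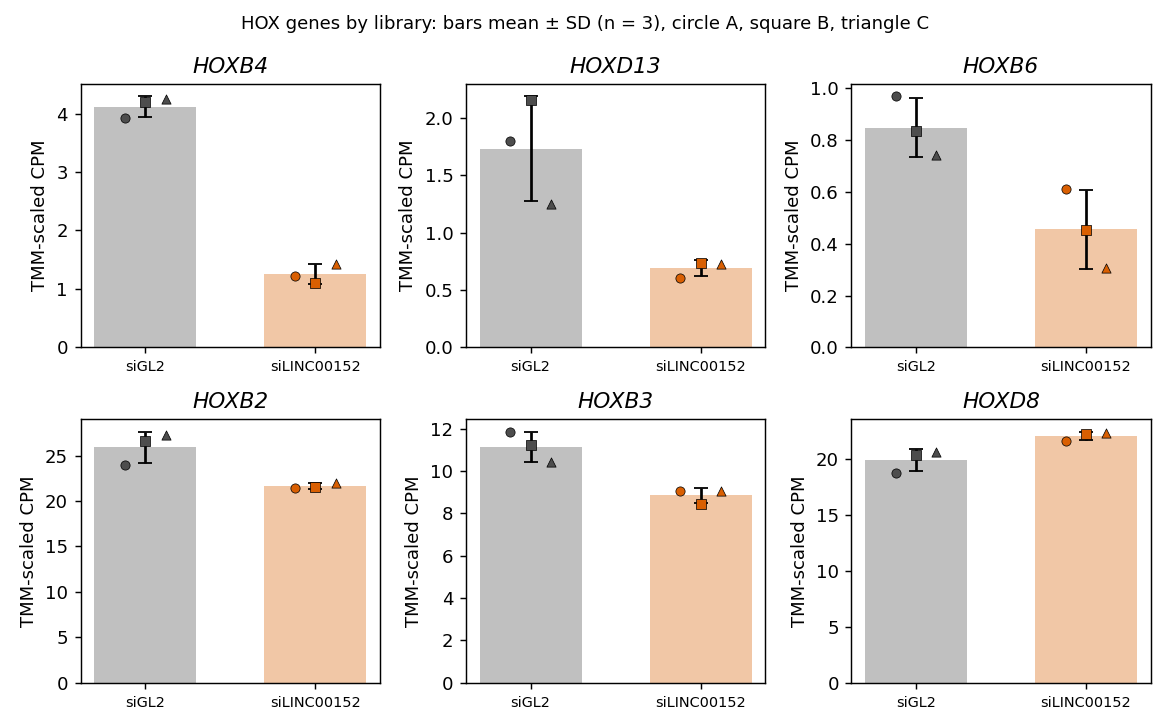
TMM-scaled CPM of HOXB4, HOXD13, HOXB6, HOXB2, HOXB3 and HOXD8, with bars for the mean, error bars for the SD (n = 3) and points for libraries A (circle), B (square) and C (triangle). In each panel the 3 siLINC00152 libraries lie on 1 side of the 3 siGL2 libraries.

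The plot of these 6 genes by library sets the large changes in the upper row (HOXB4, HOXD13 and HOXB6) beside the small ones in the lower row. Across the 21 tested HOX genes the CPM of the groups did not overlap in 13, or 61.9%, against 67.7% of all tested genes. HOXB2, HOXB3, HOXB4, HOXB6 and HOXD13 were called under every alternative that tested them. Across these alternatives the log2 fold change of HOXB4 was between −1.83 and −1.63 and that of HOXD13 between −1.51 and −1.13.

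By position along the clusters, 9 of 11 genes at positions 1 to 4 were tested, of which 1 rose and 3 fell (median log2 fold change 0.03). At positions 5 to 8, 7 of 11 were tested, with 1 higher and 3 lower (median −0.67). At positions 9 to 13, 5 of 16 were tested, with none higher and 3 lower (median −0.58). The shares of tested genes called lower were 33.3%, 42.9% and 60% in this order, and those called higher 11.1%, 14.3% and 0%. Over all tested genes 32.2% were called each way, and the last group held only 5 tested genes. Across the 21 tested genes, Spearman's rho between position number and log2 fold change was −0.47, given as a description, since the genes share libraries and clusters and differ in depth. Paralogs did not all move alike. In group 4, HOXB4 fell while HOXA4, HOXC4 and HOXD4 did not pass. In group 8, edgeR called HOXC8 lower and HOXD8 higher, but neither passed with DESeq2 (adjusted p = 0.0609 and 0.0585).

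Summed over the genes described, each cluster's RNA was compared as a description, with no test. HOXB went from 41.3, 43.4 and 43.2 CPM to 32.8, 31.7 and 33.2 CPM, 76.4% of control, and to 65.4% without HOXB2. HOXC went from 4.40, 4.54 and 4.74 CPM to 3.07, 3.93 and 3.55 CPM, 77.1% of control. In HOXB and HOXC the groups did not overlap. HOXA stood at 7.95, 8.33 and 9.01 CPM under siGL2 and 8.89, 8.52 and 8.69 CPM under siLINC00152, with overlapping groups. The sign of its mean difference, 0.268 CPM, turned with library size alone, to −0.131 CPM.

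HOXD stood at 29.2, 31.1 and 30.3 CPM under siGL2 and 30.0, 31.5 and 31.2 CPM under siLINC00152, and here the groups overlapped. The sign of its mean difference, 0.718 CPM, depended on the scaling, being −0.706 CPM with library size alone. Without HOXD8 the HOXD mean was 10.3 CPM in siGL2 and 8.84 CPM in siLINC00152, 86.0% of control. The sum over the 38 genes was 85.8 ± 2.60 CPM and 75.7 ± 0.970 CPM (SD, n = 3). Within that sum the share of HOXB went from between 49.5% and 49.8% to between 41.9% and 43.8%, and that of HOXD from between 34.7% and 35.6% to between 40.2% and 41.6%.

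**Figure D4:**
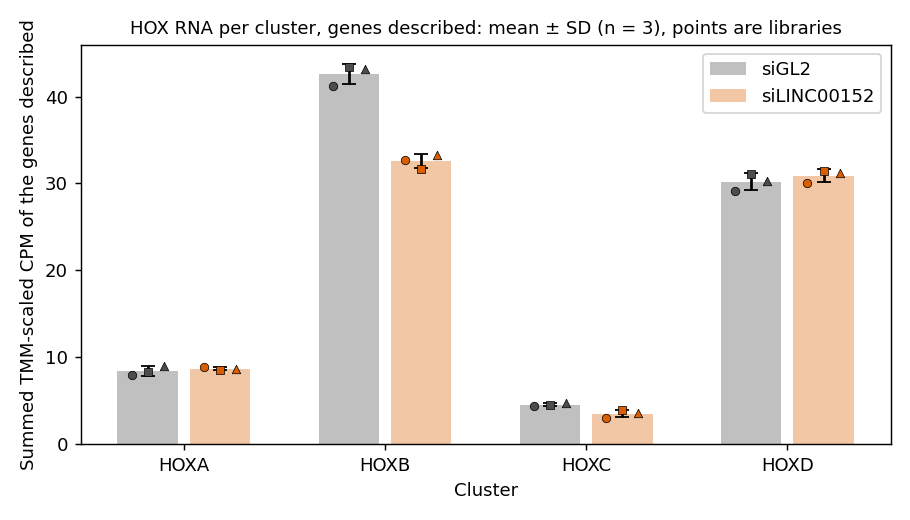
Summed TMM-scaled CPM of the genes described in each HOX cluster, with bars for the mean, error bars for the SD (n = 3) and points for the libraries, grey for siGL2 and orange for siLINC00152. HOXB and HOXC are lower in all 3 siLINC00152 libraries, and HOXA and HOXD overlap between groups.

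The plot of cluster sums shows HOXB as the cluster with the most RNA in both groups and HOXC with the least. A sum is led by its most abundant members, HOXB2 in HOXB and HOXD8 in HOXD, and says little of the low ones.

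The 17 genes that were not tested had few counts. HOXA11 had 7, 10 and 19 counts under siGL2 and 4, 3 and 10 under siLINC00152, and HOXC9 had 7, 15 and 4 against 4, 0 and 3, both overlapping between groups. HOXB7 had 2, 5 and 4 counts against 0, 0 and 1. HOXD3 had 3 to 13 counts, and HOXA6, HOXA7, HOXA9, HOXA10, HOXB8, HOXB9, HOXB13, HOXC11, HOXC13 and HOXD12 had at most 7 in any library. Fitted with no filter on low counts, HOXB7 (adjusted p = 0.0281) and HOXC9 (adjusted p = 0.0122) were also lower in edgeR. At such counts most differences were not detectable at this depth.

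Among noncoding RNAs of the HOX clusters, HOXD-AS2 and HOXB-AS1 fell. The list held 23 RNAs that are noncoding in GENCODE, of which 6 were tested, none rose and 2 fell. The share lower was 33.3%, near the 32.2% over all tested genes. It also held PRAC1 and PRAC2, which GENCODE gives as protein-coding and which had 0 counts in every library. HOXD-AS2, which GENCODE places at chr2:176121611-176137098 over HOXD9 and HOXD8 and with 26.5% of its exonic bases opposite to HOXD3, had 231, 221 and 219 counts under siGL2 and 101, 89 and 103 under siLINC00152. Its groups were far apart, at 5.02 ± 0.356 CPM and 2.33 ± 0.186 CPM (log2 fold change −1.10 ± 0.11, edgeR adjusted p = 3.01e-08). HOXB-AS1, antisense to HOXB2 and HOXB3, had 189, 169 and 194 counts against 127, 111 and 115, also without overlap (−0.55 ± 0.11, adjusted p = 1.97e-04). Of its exonic bases 29.6% lie opposite to other genes, so its reads and theirs cannot be told apart without the strand setting.

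The other tested noncoding RNAs did not pass. HOTAIRM1, transcribed from the HOXA cluster, had 552, 602 and 644 counts under siGL2 and 560, 484 and 573 under siLINC00152 (−0.06 ± 0.07, edgeR adjusted p = 0.486). HOTAIR, transcribed from the HOXC cluster and known to bind Polycomb proteins, had 17, 15 and 17 counts against 13, 8 and 16 (−0.31 ± 0.32, adjusted p = 0.405). HOXA-AS2 had 11, 24 and 12 counts against 23, 26 and 16 (0.55 ± 0.32, adjusted p = 0.141). HOTTIP, at the posterior end of HOXA, had 1 count in 1 library and 0 in the others.

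Regulators and partners of the HOX genes changed in both directions. Beside each count below stands its share of the tested genes of the list. Over all tested genes 32.2% were called higher and 32.2% lower. Of 29 tested Polycomb genes 9 rose (31.0%) and 14 fell (48.3%), with a median of −0.16. JARID2, a partner of Polycomb repressive complex 2, rose from 16.1 ± 1.50 CPM to 62.9 ± 0.305 CPM (log2 fold change 1.96 ± 0.06, edgeR adjusted p = 3.64e-16). EZH2, the methyltransferase of that complex, fell from 112 ± 2.49 CPM to 74.4 ± 2.11 CPM (−0.59 ± 0.05, adjusted p = 5.69e-10), and RBBP4, a histone-binding subunit, fell from 222 ± 0.780 CPM to 151 ± 2.33 CPM (−0.56 ± 0.04). PCGF6, a subunit of a variant Polycomb repressive complex 1, fell from 14.3 ± 0.397 CPM to 5.17 ± 0.620 CPM (−1.47 ± 0.08). None of these 4 genes overlapped between groups.

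Of 19 tested genes of MLL complexes, their partners and the demethylases that remove the Polycomb mark, 8 rose (42.1%) and 5 fell (26.3%), with a median of 0.03. PSIP1, which tethers MLL complexes to chromatin, fell from 108 ± 6.43 CPM to 59.6 ± 2.98 CPM (log2 fold change −0.86 ± 0.05, edgeR adjusted p = 1.62e-11). MLLT1, a reader of acetylated histones in elongation complexes, fell by 0.75 and ASH2L, a core subunit, by 0.65 on the log2 scale. KDM6A, a demethylase of the Polycomb mark, rose by 0.58. Among 9 tested TALE cofactors and their partners 3 rose (33.3%) and 2 fell (22.2%), with a median of −0.02. PBXIP1, which binds PBX proteins and keeps them from DNA, rose by 0.72 ± 0.05 (edgeR, adjusted p = 6.49e-11). MEIS2 and MEIS3 rose by 0.19 and 0.18, and PBX4 fell by 0.50.

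Of 15 tested genes of retinoic acid signalling 4 rose (26.7%) and 8 fell (53.3%), with a median of −0.19. TGM2, a transglutaminase induced by retinoic acid, fell from 256 ± 6.60 CPM to 75.4 ± 2.58 CPM (log2 fold change −1.77 ± 0.05, edgeR adjusted p = 3.42e-17). DHRS3, which turns retinaldehyde back to retinol, fell by 1.01 and ALDH1A3, which makes retinoic acid, fell by 0.81 on the log2 scale. CYP26B1, which breaks retinoic acid down, rose from 25.4 ± 0.972 CPM to 48.5 ± 2.94 CPM (0.94 ± 0.06, adjusted p = 1.13e-11).

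Genes flanking the clusters showed no common direction, with 7 of 20 tested higher and 7 lower (median 0.04). That was 35% each way, near the 32.2% higher and 32.2% lower over all tested genes. Beside HOXA, SKAP2 (0.36), HIBADH (0.16) and TAX1BP1 (0.12) rose and JAZF1 (−0.83) fell. Beside HOXB, NFE2L1 (0.40) rose, CBX1 (−0.11), CALCOCO2 (−0.40) and ATP5G1 (−0.58) fell, and SNX11 (0.06) did not pass. Beside HOXC, ATF7 (0.68) and CBX5 (0.23) rose and HNRNPA1 (−0.21) fell, while ATP5G2 (−0.01), CALCOCO1 (0.13), SMUG1 (−0.01) and NFE2 (0.65) did not pass. Beside HOXD, ATF2 (0.39) rose, ATP5G3 (−0.36) and MTX2 (−0.44) fell, and LNPK (0.03) did not pass. The values are log2 fold changes from edgeR.

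Homeobox transcription factors outside the clusters were lower more often than higher, with 8 of 36 tested higher and 18 lower (median −0.36, against −0.26 for the HOX genes). That was 22.2% higher and 50% lower, against 32.2% each way over all tested genes. DLX1, a forebrain interneuron factor, fell from 20.3 ± 1.41 CPM to 9.07 ± 0.274 CPM (log2 fold change −1.16 ± 0.07, edgeR adjusted p = 1.05e-11), and IRX3 fell by 0.78. ZEB2, a repressor active in mesenchymal cells, rose from 106 ± 6.65 CPM to 195 ± 10.4 CPM (0.88 ± 0.05, adjusted p = 8.22e-12), and POU2F1, a widely expressed octamer-binding factor, rose by 0.82. The difference between these genes and the HOX genes was not tested.

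**Figure D5:**
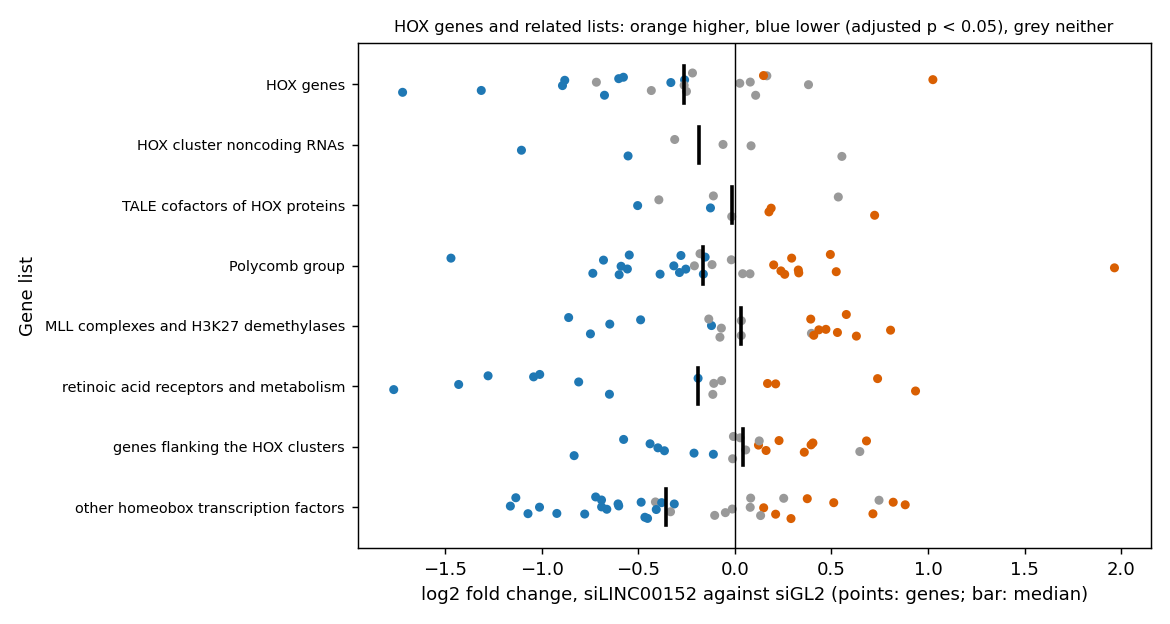
Log2 fold changes of siLINC00152 against siGL2 for the tested genes of the HOX clusters and of 7 related lists, 1 point per gene, coloured by edgeR's call, with a black bar for each median. The HOX genes spread from −1.72 to 1.03 around a median of −0.26, and every list holds points on both sides of 0.

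The plot of the lists shows the HOX spread beside its regulators, neighbours and relatives. JARID2, at 1.96, is the point farthest to the right, and TGM2, at −1.77, the point farthest to the left.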

How the data were processed

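Per the labels, polyA RNA of U87 cells went into directional libraries, which were read from both ends for 75 bases. The authors deposited 1 table of raw counts per library, with a whole number for each gene symbol. Per the submitters' processing notes, bcl2fastq, HISAT, HTSeq and DESeq were used with hg38. Which annotation and strand setting were used, and how reads with several matches were handled, is not given in the sources used.

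From the deposited counts, filterByExpr with a minimum count of 10 and a minimum total of 15 kept 14078 of 27192 genes, and library sizes were scaled by TMM (factors 0.975 to 1.03). Groups were compared over all 6 libraries, with no covariate, by edgeR's robust quasi-likelihood test (edgeR 4.0.16, R 4.3.3), two-sided, with Benjamini-Hochberg adjustment over all tested genes. SEs are the absolute log2 fold change over the root of the F statistic. Floors of 3 counts cover counting error only. Alternatives were other scalings, other filters, DESeq2 1.42.0, a replicate block and leaving out each library. Positions, transcript lengths and exon overlaps came from GENCODE release 29, which has the assembly of hg38, and promoters from RefSeq. The HOXD10, HOXD8 and HOXD1 windows run into coding transcripts of GENCODE; all were searched whole, HOXD8 was printed up to that point and the others were not printed.

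Of 39 HOX genes that the rule took, 1 is not reported here and is in no count, sum or median of HOX genes. The HOX genes, the related lists, the markers and the rule for named genes were chosen with earlier results of these data known. The rule gave values in every library for HOX genes called or averaging 1 CPM or more, and named up to 4 genes with the smallest p in each other list, every tested noncoding RNA and every tested flanking gene. Chi-square per degree of freedom over genes was 2.91 to 13.7 between replicates, highest for the pairs of siGL2 replicate A, so no pair agreed within sampling noise. The edgeR step was also run on 8 simulations, all kept, with the library sizes and mean levels of these data over 13974 to 13983 genes. It recovered 72.8%, 85.3%, 93.5% and 98.3% of changes of 1.25-fold, 1.5-fold, 2-fold and 4-fold. On average 5.47% of its calls were false (7.22% in the worst simulation). The simulations changed only a small part of the genes, as many up as down, and gave every gene the same dispersion. In the data most tested genes were called and replicates differed unevenly, so these rates may not hold for the real calls or for HOX genes with low counts.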

Additional observations from a re-analysis of the deposited data

How the results depend on the processing

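Of the 2 HOX genes called higher, HOXD1 and HOXD8, few settings kept both. With RLE scaling, no low-count filter or the replicate block 2 were higher, and with library size alone or a filter of at least 1 CPM 1 was. Over the leave-one-out fits the number ranged from 0 to 2, with 0 without siLINC00152 replicate C. DESeq2 gave 0 higher and 7 lower, and shared 7 of the 11 calls. At an unadjusted p under 0.05, 2 were higher with DESeq2, 0 in edgeR without siLINC00152 replicate C and 2 in edgeR with all libraries. The number lower was between 7 and 11, except with the filter of at least 1 CPM, which left 11 HOX genes tested and gave 5. Without the 11 genes that share at least 25% of their exonic bases with another gene, chosen after seeing the data, 1 was higher and 8 lower.

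Directions turned only for genes that were not called and for untested sums, and the cause was not tested. Leaving out a library gave log2 fold changes from −0.0291 to 0.21 for HOXA3, from −1.05 to 0.15 for HOXC10, from −0.0817 to 0.11 for HOXD4 and from −0.0229 to 0.19 for HOXD9. With library size alone HOXD4 was at −0.0416 and the sums differed by −0.131 CPM in HOXA and −0.706 CPM in HOXD. Without HOXA4 and HOXD8, their most abundant genes described, these sums differed by −0.276 CPM and −1.44 CPM. With library size alone HOXB5 (adjusted p = 0.0475) and HOXC6 (adjusted p = 0.0363) passed in edgeR.

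Whether libraries with the same letter share more than the letter is not known here. The correlation of their deviations from the group means was 0.109 for A, −0.02 for B and 0.104 for C. Pairs with different letters were between −0.15 and 0.061. With the letter as a replicate block, 2 HOX genes were higher and 9 lower, and 9155 of all genes were called, against 9058 without it. A and C correlated best with their own letter and B did not. With 2 groups of 3 libraries and under 20 counts in some HOX genes, small changes of low genes may not be detectable at this depth.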
